A study of Mus musculus with 24 samples.

Results

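The expression of 10 transcription factor genes of the B lineage was examined: Pax5, Ebf1, Foxo1, Ikzf1, Ikzf3, Myb, Bach2, Irf4, Pou2af1 and Spi1. They were chosen by name, and every probe set annotated to 1 of them alone was used, which gave 26 of the 34945 single-gene probe sets, for 10 of 18193 genes. The samples were 12 B-cell lymphomas of Eμ-Myc mice, in which an immunoglobulin enhancer drives a Myc transgene in B cells, each taken from enlarged lymph nodes. All cells of both groups also carried Bcl2 from a retrovirus, had been selected with puromycin and grew on gamma-irradiated NIH 3T3 mouse fibroblasts as feeder cells. In the ADR group, each lymphoma was cultured for 5 days with the DNA-damaging drug Adriamycin (doxorubicin, abbreviated ADR) at 0.05 µg/ml. In the untreated group, the same lymphoma grew without it. Per the study's design text such cells become senescent, that is, they stop dividing for good, on DNA damage. Senescence induction is labelled TIS for 11 ADR arrays and yes for that of lymphoma 1467, with no reason given. No source used here gave the age or sex of the mice.

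B cells are made in steps that these factors direct. EBF1 and FOXO1 switch on the early B-cell genes, and PAX5 then commits cells to the lineage by activating B-cell genes and silencing others. The zinc finger proteins IKAROS (Ikzf1) and AIOLOS (Ikzf3) restrain pre-B cell growth, MYB keeps progenitors dividing and surviving, and PU.1 (Spi1) serves both B cells and, at higher dose, macrophages. In mature B cells BACH2 holds back plasma cell genes, OCA-B (Pou2af1) is the coactivator of octamer-binding POU factors, and IRF4 acts in both germinal centre and plasma cells. The comparison of ADR with untreated cells asks how the RNA of these regulators differs between both states of the same lymphoma.

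Each of 24 arrays gave log2 expression values, on which a difference of 1 is a 2-fold change. Array medians lay between 4.38 and 4.47, and a group mean at or below 4.47 was taken as near the floor and given no fold. Each gene is described by its probe set with the highest mean, with its other probe sets beside it. Changes are ADR minus untreated, tested with limma with the lymphoma as a block, and called at an adjusted p under 0.05 over the 34945 probe sets. B-cell markers bore out the label: the mean of 9 (Cd79a, Cd79b, Cd22, Cd72, Blnk, Ms4a1, Blk, Cd37 and Fcrla) was 7.66 to 11.02 in ADR arrays (median 8.85) and 8.97 to 10.27 in untreated arrays (median 9.42). Markers of fibroblasts and macrophages were higher with ADR. The fibroblast mean was 4.81 to 9.05 in ADR arrays (median 7.0) and 4.35 to 5.37 in untreated arrays (median 4.72), and 16 of 20 measured markers were called higher. The macrophage mean was 5.91 to 8.44 (median 7.49) in ADR arrays and 4.97 to 7.49 (median 6.36) in untreated arrays, with 11 of 20 called higher. Of the fibroblast markers, Pdgfrb and Lum lay near the floor in both groups, and of the macrophage markers Mrc1, C1qa, Cd163, Mertk and Vsig4 did.

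Myb, Bach2 and Ebf1 were lower with ADR and Spi1 was higher, while no other factor passed the test by its highest probe set. Over all 26 probe sets, 10 were called lower and 1 higher. Among all single-gene probe sets, 12.5% were called lower and 11.3% higher. By 1 probe set per gene, 3 of the 10 factors were called lower and 1 higher, against 12.5% and 13.4% of all genes. The median change of the 10 factors was -0.49, beside -0.01 over all genes. Without lymphoma 1467, whose ADR label differs, 4 factors were called lower (Pou2af1 as well) and 1 higher. In that fit 13% of all probe sets were called lower and 11.8% higher.

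**Figure D1:**
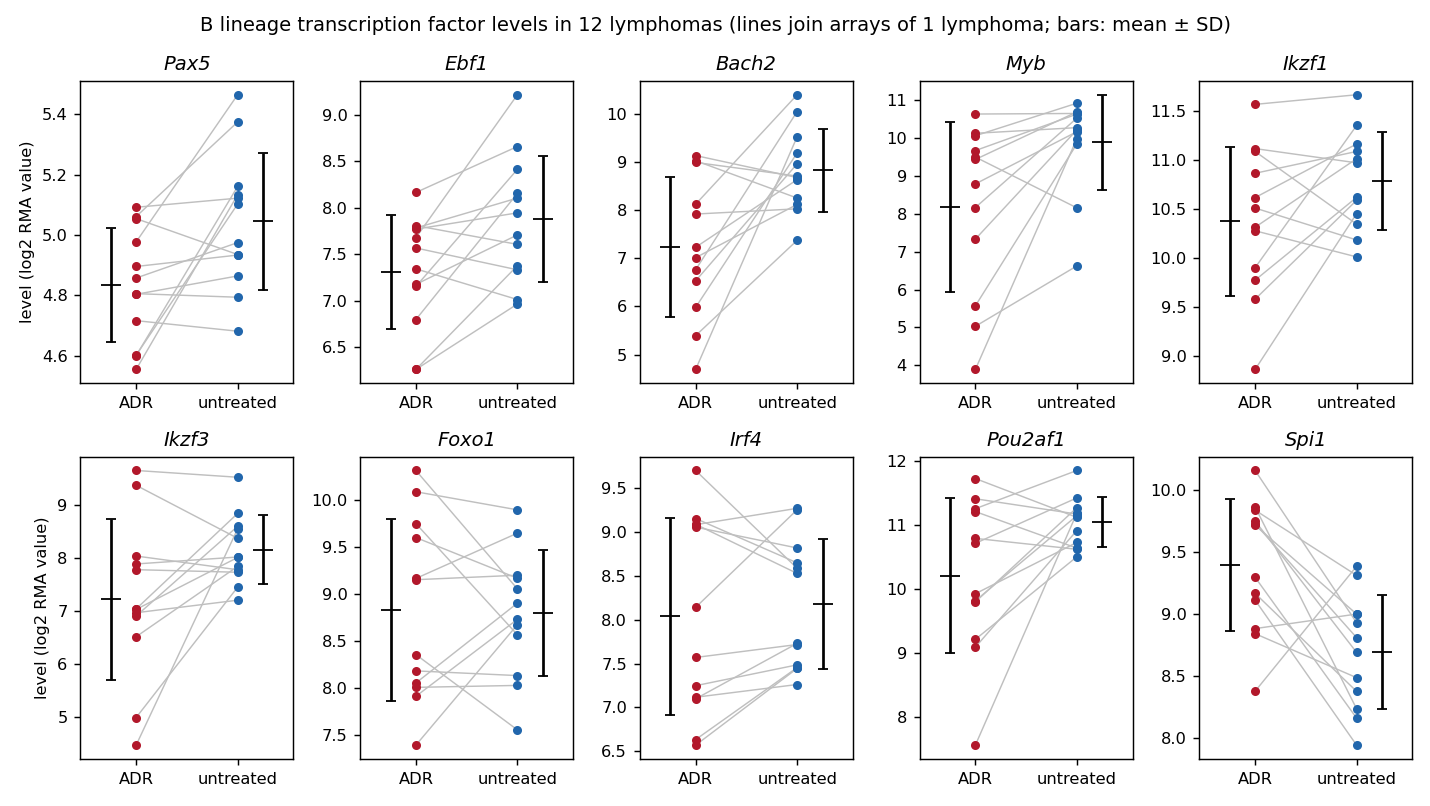
Log2 level of each factor's highest probe set in ADR (left, red) and untreated (right, blue) arrays of 12 lymphomas; lines join arrays of 1 lymphoma and bars give the mean ± SD of each group, each panel on its own axis. Bach2 and Myb spread over a wider range in ADR arrays, and most Spi1 lines run downward toward the untreated side.

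The promoters of the 3 factors that were lower with ADR are shown because their RNAs moved the same way. They are RefSeq windows of build GRCm38.p6, from 250 bases before to 50 bases after an annotated start, read 5′ to 3′ on the gene's strand. Capitals mark the matches to any of 10 motifs searched on both strands, and a window without capitals has none. The Myb window is chr10:21160935-21161234 on the minus strand. The Bach2 window is chr4:32417185-32417484, on the plus strand and inside the span annotated to its gene. Ebf1 has 2 windows on the plus strand, both shown: chr11:44617850-44618149, at the annotated start of the gene, and chr11:44619978-44620277, inside its span.
Myb: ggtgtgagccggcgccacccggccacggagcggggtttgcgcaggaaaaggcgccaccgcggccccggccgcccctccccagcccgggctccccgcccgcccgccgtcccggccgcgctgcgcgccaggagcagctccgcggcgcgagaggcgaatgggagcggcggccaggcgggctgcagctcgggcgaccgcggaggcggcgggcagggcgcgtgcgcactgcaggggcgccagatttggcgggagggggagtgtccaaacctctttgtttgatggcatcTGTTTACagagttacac
Bach2: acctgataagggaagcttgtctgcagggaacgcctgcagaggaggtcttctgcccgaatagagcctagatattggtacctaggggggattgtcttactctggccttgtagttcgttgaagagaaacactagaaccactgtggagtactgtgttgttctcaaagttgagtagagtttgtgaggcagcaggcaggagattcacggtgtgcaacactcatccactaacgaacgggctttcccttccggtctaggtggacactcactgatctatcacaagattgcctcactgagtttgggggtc
Ebf1, gene start: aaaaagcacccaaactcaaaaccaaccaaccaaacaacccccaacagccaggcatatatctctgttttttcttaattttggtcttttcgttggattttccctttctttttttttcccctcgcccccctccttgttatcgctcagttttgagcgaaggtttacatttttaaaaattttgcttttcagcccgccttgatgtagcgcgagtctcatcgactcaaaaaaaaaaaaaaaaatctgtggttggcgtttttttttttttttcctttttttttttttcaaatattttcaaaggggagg
Ebf1, inside the span: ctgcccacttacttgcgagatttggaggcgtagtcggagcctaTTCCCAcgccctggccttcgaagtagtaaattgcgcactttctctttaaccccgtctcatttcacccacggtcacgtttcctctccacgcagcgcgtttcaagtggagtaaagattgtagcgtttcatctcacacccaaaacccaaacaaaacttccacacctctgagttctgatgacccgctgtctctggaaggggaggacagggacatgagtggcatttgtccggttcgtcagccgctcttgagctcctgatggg
Myb had 75% G and C and 40 CpG pairs, Bach2 50.3% and 7 pairs, the Ebf1 window at the gene start 36.7% and 9 pairs and the other Ebf1 window 53% and 17 pairs, beside a median G and C content of 52.7% over all windows. In Myb the capitals are the FOXO core GTAAACA on the other strand, held by 3.65% of all 32851 windows. In the Ebf1 window inside the span they are the IKAROS core TGGGAA on the other strand, held by 25.6%. The letters searched also included the octamer ATGCAAAT (1.74% of windows), the E-boxes CAGGTG (20.2%) and CACGTG (7.15%), the PU.1 core GAGGAAGT (3.2%), the MYB core CAACTG (13.7%), TATAAA (13.6%), the BACH site known as MARE (0.155%) and the palindromic EBF site (0.904%). Among 10 windows of 8 factors, the other matches were the EBF site in Foxo1 and TATAAA in Irf4. A match is only a run of letters, and Spi1 and Ikzf3 had no window in the table.

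Among the factors that start the B-cell programme, Ebf1 was lower with ADR. Its probe set 1416302_at lay between 6.26 (lymphoma 3769) and 8.17 (lymphoma 2949) in ADR arrays, with a median of 7.46, and between 6.96 (3594) and 9.22 (5766) in untreated arrays, with a median of 7.83. The groups overlapped widely, and 3 ADR arrays lay below the lowest untreated array. The mean was 7.31 ± 0.61 with ADR and 7.88 ± 0.68 untreated (SD, n = 12 each), which was 1.48-fold lower (log2 change -0.56, SE 0.17, limma adjusted p = 0.0293). Ebf1 was lower in 9 of 12 lymphomas, by as much as 1.54 in 5766, and higher in 1570, 403 and 3802. A second probe set, 1448293_at, was also called (log2 change -0.70, adjusted p = 0.0411). The probe sets 1439789_at (-0.59) and 1416301_a_at (-0.64) had changes of like size and missed the threshold (adjusted p = 0.0666 and 0.0817 in limma), and 1457441_at was near the floor. The Ebf1 call of 1416302_at was lost on leaving out any 1 of lymphomas 2581, 3594, 3769, 5766 or 6054, with changes from -0.64 to -0.47 over the 12 omissions.

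Pax5, whose protein commits cells to the B lineage, did not pass the test. Its brighter probe set 1454401_at was dim, at 4.56 to 5.09 in ADR arrays (median 4.83) and 4.68 to 5.46 in untreated arrays (median 5.04). All 24 values lay within about 1 log2 unit, and how large a change of Pax5 could be seen was not tested. It was lower in 9 of 12 lymphomas (log2 change -0.21, SE 0.08, limma adjusted p = 0.0617). It was called after median centring of arrays (-0.25, adjusted p = 0.0389), after quantile normalization (adjusted p = 0.0332), as the mean of the Pax5 probe sets (adjusted p = 0.0353) and without lymphoma 1570 (adjusted p = 0.0411, all in limma). Its second probe set 1421765_at was near the floor (-0.14).

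Foxo1, the forkhead factor that turns on Il7r and the recombination genes, showed no difference in either direction by limma. Its level was 7.39 (5560) to 10.31 (1570) in ADR arrays, median 8.76, and 7.56 (403) to 9.90 (2949) in untreated arrays, median 8.82. It was higher in 6 lymphomas and lower in 6, from -1.28 in 5560 to 1.26 in 1570. The mean change was 0.03 with a 95% confidence interval of -0.42 to 0.49 (limma adjusted p = 0.935), so an average change of up to that size in either direction was not excluded by these arrays. The other Foxo1 probe sets gave 0.08, -0.13 and, near the floor, -0.03.

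Myb had the largest average fall among the factors and the widest spread. The level of 1421317_x_at was 3.89 (5560) to 10.63 (3802) in ADR arrays, median 9.11, and 6.62 (1467) to 10.92 (5766) in untreated arrays, median 10.24. In 3 ADR arrays, those of 5560, 1467 and 403, Myb lay below every untreated array, while in the other 9 the groups overlapped. The mean was 8.18 ± 2.24 with ADR and 9.89 ± 1.25 untreated (SD, n = 12 each), 3.26-fold lower (log2 change -1.71, SE 0.52, limma adjusted p = 0.0279). It was lower in 11 of 12 lymphomas, by 6.09 in 5560 and 4.27 in 403, almost level in 3802 and 2949 (-0.02 and -0.15), and 1.34 higher in 1570. The 2 other Myb probe sets were called too (log2 changes -1.74 and -1.70), and in those 9 of 12 lymphomas were lower. Without lymphoma 3594, 3769 or 403 the call of 1421317_x_at was lost, at adjusted p between 0.0568 and 0.0590, and without 403 and 5560 together the change was -1.01 (adjusted p = 0.0544).

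Ikzf1 and Ikzf3 gave mixed calls between probe sets. Ikzf1 was bright in every array: 1436312_at lay at 8.87 (403) to 11.56 (3802) with ADR, median 10.41, and 10.01 (1467) to 11.66 (3802) untreated, median 10.79. The groups overlapped, 4 ADR arrays lay below all untreated ones, and the change of -0.41 (SE 0.19) did not pass (limma adjusted p = 0.142). The dimmer Ikzf1 probe set 1421303_at was called lower (log2 change -0.72, SE 0.24, adjusted p = 0.0436), in 10 of 12 lymphomas, a call that held in 2 of the 12 fits that each left out 1 lymphoma. For Ikzf3 the order was the same. Its brighter probe set 1436649_at lay at 4.47 (5560) to 9.66 (3802) with ADR, median 7.04, and 7.21 (6054) to 9.53 (3802) untreated, median 8.02. Although 7 ADR arrays lay below all untreated ones, the change of -0.94 (SE 0.37) did not pass (limma adjusted p = 0.0820, and 0.0413 without lymphoma 1570), and it ranged over lymphomas from -4.09 in 5560 to 1.00 in 1570.
Ikzf3 1441088_at was lower in 11 of 12 lymphomas, with 4.81 to 7.46 in ADR arrays (median 5.55) and 5.37 to 7.62 in untreated arrays (median 6.29). That was 1.67-fold lower (log2 change -0.74, SE 0.17, limma adjusted p = 0.00596), and the call held without any 1 lymphoma. The third Ikzf3 probe set was near the floor.

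Bach2 was lower with ADR by all 3 of its probe sets. The level of 1437667_a_at was 4.69 (5560) to 9.13 (1570) in ADR arrays, median 7.12, and 7.37 (7050) to 10.39 (2581) in untreated arrays, median 8.69. Of the ADR arrays, 7 lay below the lowest untreated array and 0 above the highest. The mean was 7.23 ± 1.46 with ADR and 8.82 ± 0.87 untreated (SD, n = 12 each), 3.01-fold lower (log2 change -1.59, SE 0.45, limma adjusted p = 0.0197). It was lower in 9 of 12 lymphomas, by as much as 4.83 in 5560, and 0.28, 0.46 and 0.78 higher in 3802, 1570 and 1467. The probe set 1436515_at gave -1.52 (adjusted p = 0.0305), and 1445460_at moved little (-0.18, adjusted p = 0.0497). The Bach2 call of 1437667_a_at held in all 12 fits without 1 lymphoma (changes from -1.81 to -1.30), that of 1436515_at in 6 and that of 1445460_at in 3. For 1437667_a_at without 403 and 5560 together the change was -1.10 (adjusted p = 0.0665).

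Irf4 and Pou2af1, both active in late B-cell stages, did not pass the test. Irf4 lay at 6.57 (5560) to 9.70 (1570) with ADR, median 7.85, and 7.26 (7050) to 9.27 (3594) untreated, median 8.13. Its change was -0.15 (95% confidence interval -0.52 to 0.23, limma adjusted p = 0.622), and its second probe set gave -0.46 (adjusted p = 0.114). By 1421173_at, the untreated lymphomas fell into 6 at 7.26 to 7.73 and 6 at 8.53 to 9.27, a gap wider than the spread inside either set. The second probe set, 1421174_at, did not repeat that split. There untreated 2581 of the upper set (6.21) lay close to 5766 of the lower set (6.15). Pou2af1, with 1 probe set, lay at 7.56 (5560) to 11.73 (1570) with ADR, median 10.32, and in a narrower band of 10.50 (7050) to 11.85 (2581) untreated, median 11.13. In 6 ADR arrays it lay below every untreated array. The change was -0.84 (SE 0.31, limma adjusted p = 0.0683, lower in 8 of 12), and it was called without 1467 (-0.97, adjusted p = 0.0400) or without 1570 (-0.97, adjusted p = 0.0418).

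Spi1, the gene of the ETS factor PU.1, was the one factor called higher. Its single probe set lay at 8.38 (403) to 10.16 (6054) in ADR arrays, median 9.51, and 7.94 (1467) to 9.39 (403) in untreated arrays, median 8.75. In 6 ADR arrays Spi1 lay above every untreated array, and lymphoma 403 held both the lowest ADR and the highest untreated value. The mean was 9.39 ± 0.53 with ADR and 8.70 ± 0.46 untreated (SD, n = 12 each), 1.62-fold higher (log2 change 0.70, SE 0.19, limma adjusted p = 0.0143). It was higher in 10 of 12 lymphomas, by 1.63 in 5766, and lower by 0.12 in 3802 and 1.01 in 403. The call held in all 12 fits without 1 lymphoma (0.62 to 0.85). Macrophages express Spi1, and the macrophage marker mean was higher with ADR in 12 of 12 lymphomas, by 0.35 to 2.54. In bulk RNA, fewer cells of a type and less RNA per cell cannot be told apart, and the part of other cells in the Spi1 change was not tested.

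**Figure D2:**
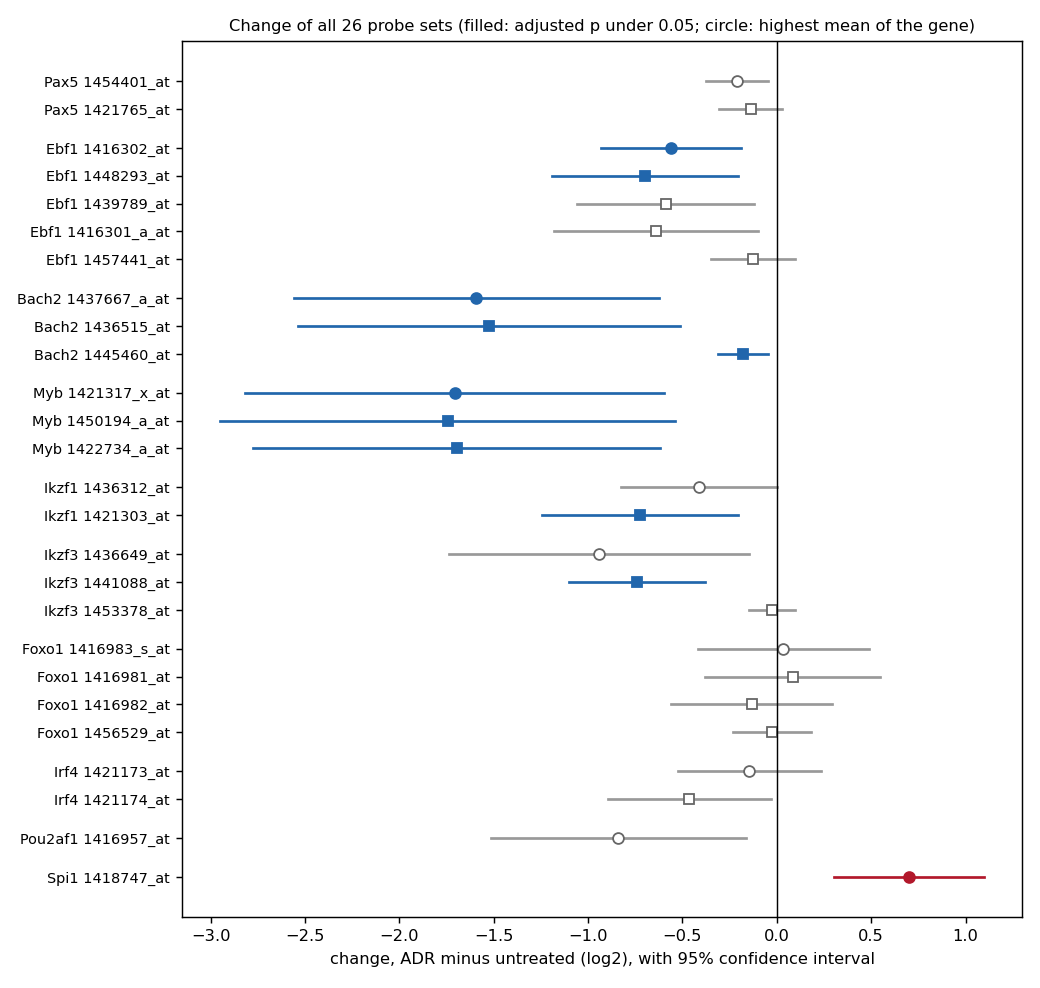
Mean log2 change (ADR minus untreated, 12 lymphomas) of all 26 probe sets with 95% confidence intervals; circles mark each gene's highest probe set, and filled points have an adjusted p under 0.05. All probe sets but those of Spi1 and Foxo1 1416983_s_at and 1416981_at lie left of 0, and Spi1 alone is filled to the right.

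The factors did not change alike in every lymphoma. By each gene's highest probe set, 9 of the 10 factors were lower with ADR in 5560, 3594 and 5766, and all 10 were higher in 1570. Other probe sets of the factors went both ways in 1570. Ikzf1 1421303_at (-1.44), Irf4 1421174_at (-1.04) and Bach2 1445460_at (-0.38) were lower, while Bach2 1436515_at (1.16) and Myb 1450194_a_at (1.25) were higher. The share of all genes higher or lower in a single lymphoma was not computed. The median change over the 10 factors was lowest in 5560 (-1.36), 403 (-1.17) and 3769 (-1.06), and highest in 1570 (0.53). Lymphomas 2949 and 3802 split 5 and 5, with no factor moved by over 1 in either. Part of this order was shared with the fibroblast marker change, a relation not computed for these medians. The fibroblast marker mean rose by 4.09 in 5560 and by 4.27 in 403, and it changed by -0.16 to 0.89 in 1467, 2949, 3802 and 1570. In 2581 it rose by 2.74, while the median change of the factors was -0.31 and 4 factors were higher.

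**Figure D3:**
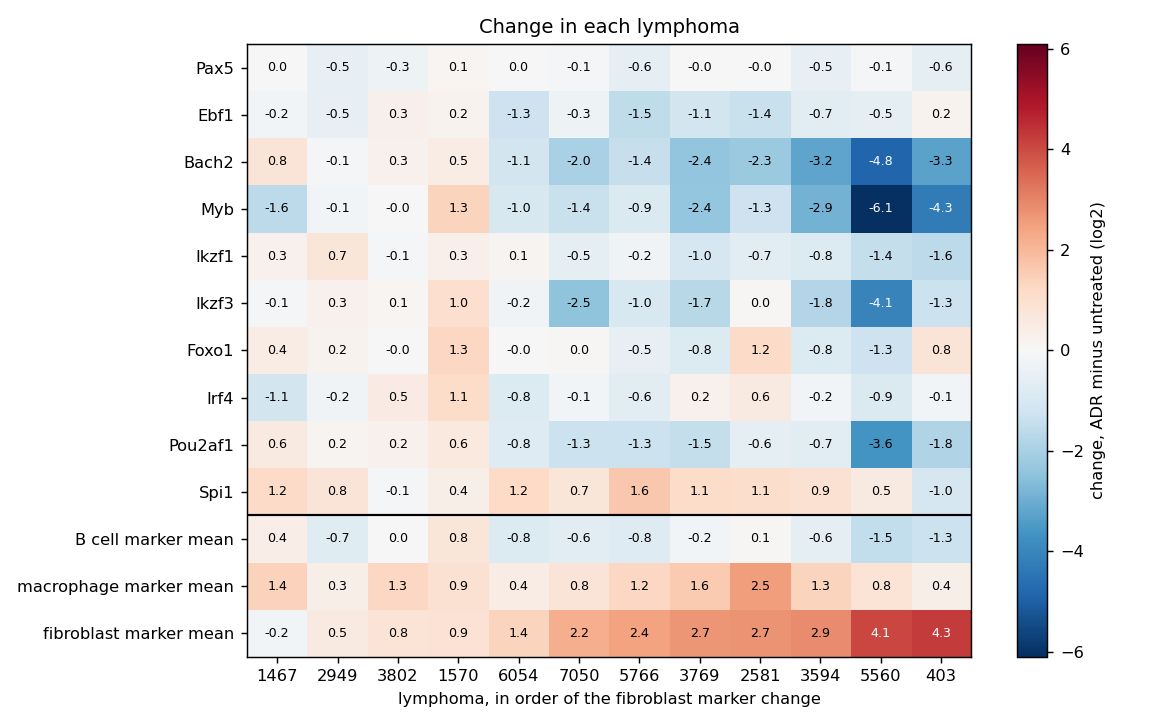
Log2 change (ADR minus untreated) of each factor and of 3 marker means in each lymphoma, with lymphomas ordered by their fibroblast marker change; red is higher and blue lower with ADR. Bach2 and Myb are darkest blue in 5560 and 403, at the right, where the fibroblast marker change is largest.

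Across the 12 lymphomas, the change of the fibroblast marker mean was related to that of several factors. For Bach2, Pearson's r was -0.948 and Spearman's rho -0.951 (two-sided permutation test, p = 1e-05 in each case, which is the lower limit of a test with 100000 resamples, and adjusted p = 0.00065 over 65 relations). Leaving out lymphomas 1467 and 403, whose fibroblast marker changes lay farthest out, gave r of -0.962, and it was -0.933 within the 7 lymphomas whose treated array files were named DOX and -0.956 within the 5 named sen. For Ikzf1, r was -0.937 and rho -0.923 (permutation p = 4e-05 and 6e-05, adjusted p = 0.0013 and 0.00195), and r was -0.939 without 1467 and 403, -0.887 within DOX and -0.975 within sen. By their highest probe sets, Bach2 and Ikzf1 thus fell more where fibroblast markers rose more. The relation of the other Ikzf1 probe set, 1421303_at, was not computed, though its fall was the one called in limma. The change of 1421303_at was -1.44 in 1570 and -2.19 in 403, where the fibroblast marker mean changed by 0.89 and 4.27.
For Myb, r was -0.788 and rho -0.713 (permutation p = 0.00194 and 0.0118), of which r passed after adjustment (0.0277) and rho did not (0.127). Its r was -0.885 without 1467 and 403, -0.880 within DOX and -0.758 within sen. For Ikzf3, neither did (r -0.722, rho -0.671, permutation adjusted p = 0.0738 and 0.157). For Pou2af1, lymphoma 5560 stood apart, and in the other 11 r was -0.870 and rho -0.718 (permutation p = 0.00052 and 0.0163, not adjusted). The change of Ebf1 (r -0.197), Foxo1 (-0.332), Irf4 (-0.048) and Pax5 (-0.297) had no relation that passed (permutation adjusted p between 0.588 and 0.957), and the r of Pax5 was 0.034 without 1467 and 403. For Spi1, lymphoma 403 stood apart, and in the other 11 r was 0.145 (permutation p = 0.675). No relation of a factor to the macrophage marker change passed (permutation adjusted p of r between 0.576 and 0.993 over 12 lymphomas, of which 2581 stood apart in that change). Both measures in each relation came from the same arrays, so anything that moves a whole array enters both.

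**Figure D4:**
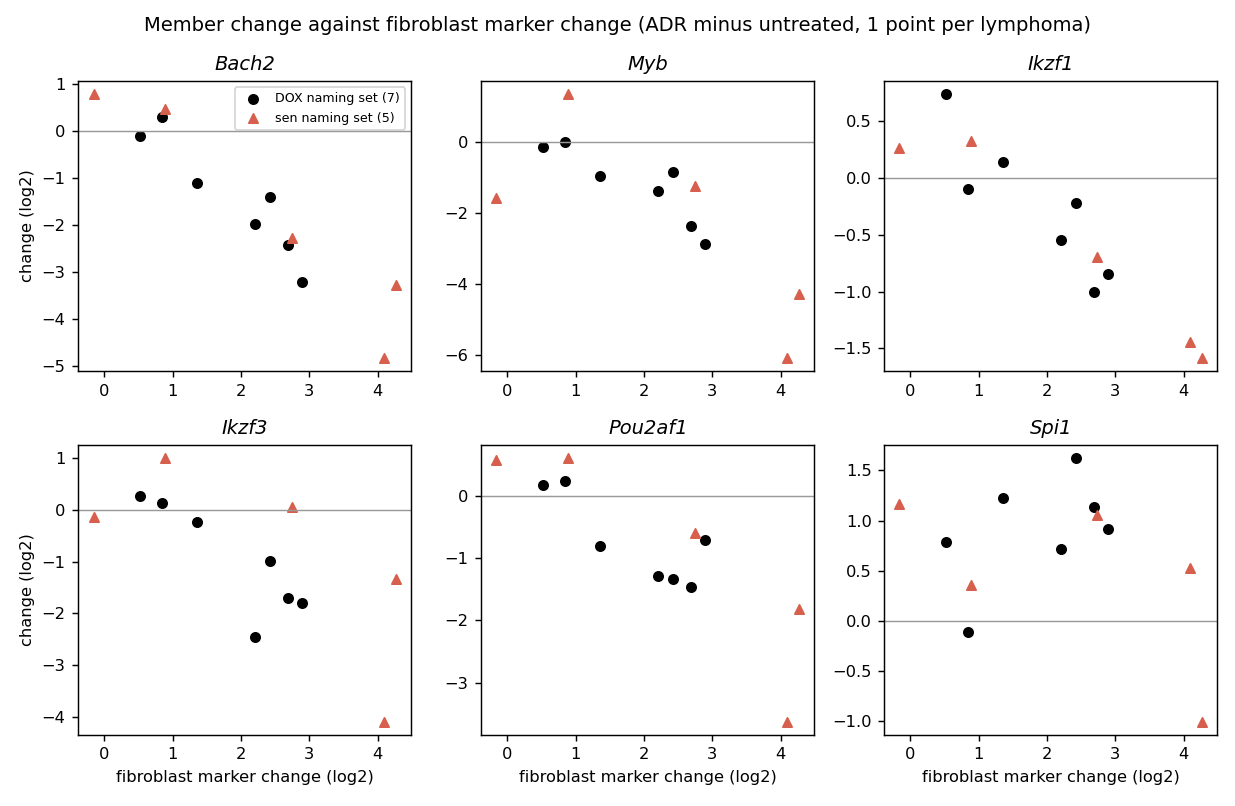
Log2 change of 6 factors against that of the fibroblast marker mean (both ADR minus untreated, 1 point per lymphoma; circles DOX and triangles sen naming set). Bach2 (r -0.948) and Ikzf1 (r -0.937) fall along the axis, and Spi1 does not.

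With the fibroblast marker mean of each array as a covariate, Bach2 (0.85, SE 0.28, adjusted p = 0.105) and Myb (0.62, SE 0.60, adjusted p = 0.650) turned sign. Neither was called, and Ikzf1 was called higher by 1436312_at (0.60, SE 0.14, adjusted p = 0.0330 in limma). Its other probe set, 1421303_at, was not called. The fibroblast marker mean was itself higher with ADR in 11 lymphomas and lower in 1, with a mean change of 2.07. The covariate thus largely moved with treatment. ADR changes in this fit refer to an unchanged fibroblast marker mean, which most pairs did not have. They are not corrected ADR effects. Ebf1 stayed lower without a call (-0.37), and Spi1 stayed higher without a call (1.01, adjusted p = 0.107). In that fit 0 of the 26 probe sets were called lower, beside 2.74% of all, and 1 higher, beside 1.58%. With the macrophage marker mean as a second covariate none of the 26 was called, and 0% of all were, with 4384 of 34945 at an unadjusted limma p under 0.05. When arrays were instead centred on the mean of the B-cell markers, the median over all probe sets moved to 0.43. Set against that shift, Bach2 (-1.15) and Myb (-1.26) kept their calls as lower and Spi1 (1.14) as higher, while Ebf1 (-0.12) lost its call. By that centring 5 of the 26 probe sets were called lower and 1 higher, beside 1.48% and 20.8% of all. The changes of Ikzf1 (0.03), Irf4 (0.30) and Pax5 (0.23), none of them called, turned sign under that centring. Without the lymphoma block 2 probe sets were called lower and 1 higher, beside 8.07% and 6.78% of all. Leaving out 403 and 5560 gave 2 and 1, beside 9.47% and 9.21%. Centring on array medians gave 11 and 1, beside 14.7% and 9.87%, and the mean of each gene's probe sets gave 6 and 1 of the 10 factors, beside 13.7% and 12.7% of all genes. The DOX naming set alone gave 7 lower and 1 higher, beside 7.51% and 7.3%, and the sen set, with 5 pairs, gave 0 and 0, beside 2.56% and 1.31%.

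Between the 2 naming sets, 0 of the 26 probe sets differed in their ADR change by limma's interaction term (lowest adjusted p = 0.704, and 1, the Foxo1 probe set 1416981_at, at an unadjusted p under 0.05). Over all 34945 probe sets 0% were called in that test, so the count says nothing particular to the factors.

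Of 29 other transcription factors of the lineage, 6 were called lower and 4 higher, with a median change of -0.06, beside 12.5% of all genes lower and 13.4% higher. The higher share is near that of all genes. Bcl11a, needed early in B-cell development, was 2.38-fold lower (7.21 ± 1.29 with ADR, 8.46 ± 0.69 untreated, SD, n = 12 each, limma adjusted p = 0.0185). Spib, the closest B-cell relative of Spi1, was 1.85-fold lower (adjusted p = 0.0405), and Tcf3, which encodes the E proteins E12 and E47, was 1.73-fold lower (adjusted p = 0.00135, lower in 11 of 12). Id2, an inhibitor of E proteins, was 1.89-fold higher (adjusted p = 0.00149, higher in 11 of 12). Ets1, Mef2c and Tcf4 were the other 3 called lower, and Bcl6, Xbp1 and Relb the other 3 called higher. With the fibroblast covariate Bcl11a (0.55) and Spib (0.24) turned sign without a call. In that fit 1 of the 29 was called lower and 1 higher, beside 2.74% and 1.58% of all probe sets.

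Family relatives of the factors gave 3 called higher and 3 lower among 16 measured, beside the same 13.4% and 12.5% of all genes, and 6 of the 16 were near the floor in both groups. Bach1, the widely expressed relative of Bach2, was higher in 12 of 12 lymphomas (8.45 ± 0.58 with ADR, 7.64 ± 0.50 untreated, SD, n = 12 each), 1.76-fold (log2 change 0.81, limma adjusted p = 0.000288), while Bach2 was lower. Mybl2, a relative of Myb that acts in cell division, was lower in 12 of 12 (5.62 ± 0.62 with ADR and 7.42 ± 0.58 untreated), 3.47-fold (limma adjusted p = 9.8e-06). Spic, an ETS factor of red pulp macrophages, was higher (log2 change 0.76), as was Foxo3 (0.41). Ikzf5 (-0.41) and Spib were the others called lower. Bach1 and Mybl2 kept their direction with the fibroblast covariate (0.78, adjusted p = 0.0686, and -1.27, adjusted p = 0.00469).

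Of 8 measured genes that EBF1 is known to activate, 5 were called lower and 0 higher, with a median change of -0.99, beside 12.5% of all genes called lower. Of the 8, 4 are also among the B-cell markers, and 2 of those 4 were called (Fcrla and Cd79a). Vpreb3, a pre-B cell receptor component, was lower in 12 of 12 lymphomas (7.38 ± 1.39 with ADR, 9.55 ± 1.15 untreated, SD, n = 12 each), 4.50-fold (limma adjusted p = 0.00176). Fcrla, an Fc receptor-like protein, was 2.78-fold lower, and Cd24a, a surface glycoprotein of early B cells, 2.16-fold lower. Igll1, the surrogate light chain, and Cd79a, the B-cell receptor signalling chain, were also called (log2 changes -0.95 and -0.80). Cd79b (-0.27), Blk (-0.63) and Vpreb1 (-1.04) were not. The count was 3 without lymphomas 403 and 5560, 2 without the lymphoma block and 0 with the fibroblast covariate. Shares called lower over all probe sets were 9.47%, 8.07% and 2.74% in those fits. With the fibroblast covariate, Fcrla (0.33), Cd79a (0.36), Igll1 (0.23) and Cd24a (0.086) turned sign.

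Of 8 measured genes that PAX5 activates, 1 was called lower (Cd79a, -0.80) and 0 higher, with a median of -0.14. The lower share is near the 12.5% of all genes, and Id3 (-0.69) was not called. Of 10 genes that PAX5 silences, 4 were called higher and 1 lower, with a median of 0.57, beside 13.4% and 12.5% of all genes. Csf1r, the receptor for the macrophage growth factor M-CSF, was 3.78-fold higher (10.33 ± 1.77 with ADR, 8.41 ± 1.90 untreated, SD, n = 12 each, limma adjusted p = 0.000949). Sdc1, the plasma cell surface protein syndecan-1, was 2.04-fold higher, Ccl3, a chemokine, 1.85-fold higher, and Xbp1, a plasma cell factor, 1.49-fold higher, while Flt3, a progenitor receptor, was 1.48-fold lower (limma adjusted p = 0.00405). Csf1r is also 1 of the macrophage markers. With the fibroblast covariate 1 of the 10 was called higher, beside 1.58% of all probe sets. Without the lymphoma block the count was also 1, beside 6.78%.

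Of 9 genes known to be repressed by BACH1 or BACH2, 5 were called higher and 0 lower, with a median of 0.51, beside 13.4% of all genes called higher. Hmox1, heme oxygenase 1, was 2.45-fold higher (9.07 ± 1.33 with ADR, 7.77 ± 1.06 untreated, SD, n = 12 each, limma adjusted p = 0.00426, higher in 11 of 12). Gclm, of glutathione synthesis, was 1.58-fold higher. Nqo1, a quinone reductase near the floor in untreated cells, changed by 1.65, and the other 2 called were Txnrd1 (0.52) and Fth1 (0.31), of redox defence and iron storage. Prdm1, the plasma cell factor that BACH2 represses, did not pass (0.40, adjusted p = 0.515, higher in 6 of 12). With the fibroblast covariate the list had 0 called higher and 1 lower, beside 1.58% and 2.74% of all probe sets.

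Of 12 genes that PU.1 activates, 9 were called higher and 0 lower, with a median of 1.10, beside 13.4% of all genes called higher. Cd14, the endotoxin co-receptor of macrophages, was higher in 12 of 12 lymphomas, 3.79-fold (9.37 ± 2.45 with ADR, 7.44 ± 2.43 untreated, SD, n = 12 each, limma adjusted p = 0.000293). Csf1r, given above, and Tyrobp, an adaptor of myeloid receptors (2.55-fold, limma adjusted p = 0.000281), followed. Btk (0.02), Fcgr2b (0.10) and Csf3r (0.84) were not called. Of the 12 genes 4 are also macrophage markers, all 4 called, and 5 of the other 8 were called. Those 5 were Tyrobp, Fcer1g, Ncf1, Fes and Il7r, and the part of macrophage RNA in their changes was not tested. The count fell to 2 with the fibroblast covariate, 2 without the lymphoma block and 1 in the sen naming set alone. Shares called higher over all probe sets also fell in those fits, from 11.3% to 1.58%, 6.78% and 1.31%.

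Targets of FOXO1, IKAROS and MYB were called in both directions, beside 12.5% of all genes lower and 13.4% higher. FOXO1 targets had 3 of 13 called higher and 1 lower, namely Il7r, the interleukin 7 receptor (2.01-fold higher, limma adjusted p = 0.00653), Bcl6 (1.69-fold higher), Irs2 (1.41-fold higher) and the homing receptor Ccr7 (1.91-fold lower). Of 7 genes that IKAROS restrains, 3 were called lower and 2 higher. They were Igll1, Cdk6 (log2 change -0.78) and Myc (-0.75), and the cyclin gene Ccnd2 (1.24) and Bcl6 (0.75). With the fibroblast covariate Igll1 (0.23), Cdk6 (0.17) and Myc (0.33) turned sign. None of the 7 was called in that fit, beside 2.74% of all probe sets lower and 1.58% higher. Of 6 MYB targets, 2 were called lower and 1 higher. Bcl2 was 1.82-fold lower in 12 of 12 lymphomas and Myc lower in 9, Cd34 changed by 2.55 with untreated cells near the floor, and Kit, Mpo and Elane were near the floor in both groups. Myc and Bcl2 were also introduced into these cells, and native and introduced copies were not separated.

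**Figure D5:**
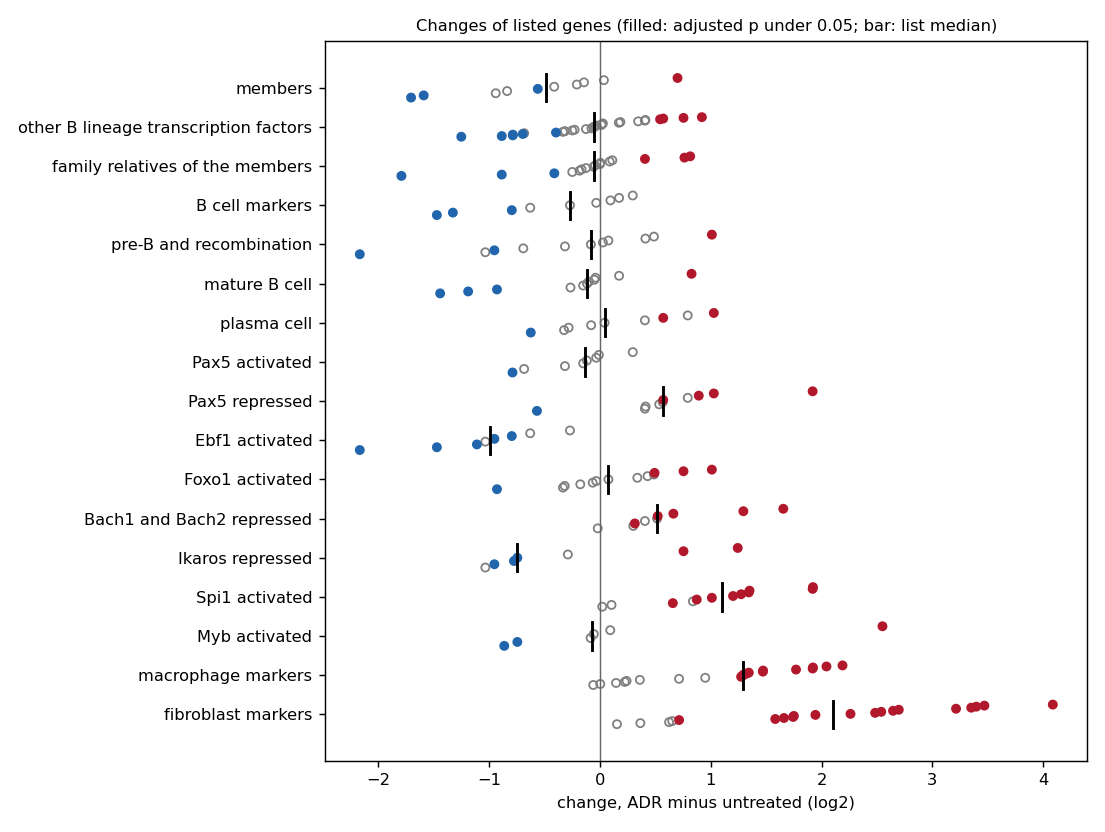
Log2 change (ADR minus untreated) of every measured gene in each list; filled points have an adjusted p under 0.05 and bars are list medians. The Ebf1 activated list lies left of 0 and the Spi1 activated list mostly right, as do the macrophage and fibroblast markers.

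Stage markers were called in both directions, beside 12.5% of all genes lower and 13.4% higher. Of the B-cell markers, 3 of 9 were called lower and 0 higher, namely Fcrla, Cd22 (2.51-fold, limma adjusted p = 0.000191, lower in 12 of 12) and Cd79a, while Cd79b, Cd72, Blnk, Ms4a1, Blk and Cd37 were not. Of 11 pre-B and recombination genes, Vpreb3 and Igll1 were called lower and Il7r higher. Of 11 mature B-cell genes, Tnfrsf13c, the BAFF receptor (2.72-fold), H2-Ob (2.28-fold) and Ccr7 were lower and Cd83 was higher (1.77-fold). Of 9 plasma cell genes, Sdc1 and Xbp1 were higher and Tnfrsf13b lower (1.54-fold). The fibroblast marker mean was higher with ADR in 11 of the 12 lymphomas. With it as a covariate limma called none of the genes of these 4 lists, beside 2.74% of all probe sets lower and 1.58% higher. In that fit Fcrla (0.33), Cd79a (0.36), Igll1 (0.23) and Sdc1 (-0.16) turned sign.

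Levels of the factors also differed between untreated lymphomas. Of 45 pairs of factors, 28 had lymphomas without separate clusters, and in 1 pair the relation passed: Bach2 and Pou2af1 rose together over 12 untreated lymphomas (r 0.788, rho 0.818, two-sided permutation p = 0.00213 and 0.00187, adjusted p = 0.0277 and 0.0405). It held without 2581 and 403 (r 0.893) and within the DOX naming set (r 0.972). Untreated Myb was at 6.62 in 1467 and 8.16 in 1570, while the other 10 lymphomas were at 9.84 or above.

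As a description over the 12 untreated arrays, the genes with the pattern most like each factor, among 11371 genes above the floor, were picked by Pearson's r. For Bach2 they were Kdsr (0.903), Sft2d3 and Bcl7a, for Myb Phf3 (0.969), Zfp84 and Fabp5, and for Ebf1 Zgrf1 (0.942), Mettl14 and Itgb2l. For Spi1 they were Nptn (0.954), Clcn7 and Lamp1, for Pax5 Rsph6a (0.834), Slc30a5 and Edem3, and for Foxo1 Ddx25 (0.936), Jak1 and Nphp4. For Ikzf1 they were Szrd1 (0.835), Chaf1b and Tmem229b, and for Ikzf3 Ogfrl1 (0.950), Cib1 and Pigyl. For Irf4 they were Ptgfrn (0.913), Rpl11 and Irgq, and for Pou2af1 Gfod1 (0.880), Slc45a2 and Arhgef18. No other member of the 10 was among these, and with 12 arrays and so many genes high values of r are to be had without any link.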

How the data were processed

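RNA of 24 samples was hybridised to Affymetrix arrays as biotin-labelled cRNA. The deposited table holds log2 values, 1 per probe set and array; per the submitters' processing notes, RMA (background correction, normalization and summary of probes) and Partek were used, with no version or setting stated there. That values are log2 follows from their range, 1.97 to 14.36. Of 45101 probe sets, 34945 had 1 gene symbol in the annotation used, 932 several, 9160 none and 64 were controls. RMA compresses weak signals, and the number of arrays limits the precision.

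The lymphoma number in the sample titles paired the arrays, as the series' design text states matched pairs. Deviations from group means correlated within pairs by 0.257 to 0.589, over 0.1 in 12 of 12. The fit used limma 3.58.1 in R 4.3.3 (lmFit and eBayes, lymphoma as a block), tested on simulated data, with Benjamini-Hochberg adjustment over the single-gene probe sets. Relations used two-sided permutation tests with 100000 resamples (scipy 1.17.1, numpy 2.4.6, pandas 2.3.3, Python 3.11.15; figures in matplotlib 3.10.9). No pooled value is given where 3 times the widest gap between lymphomas was over their range, a rule set after seeing values. The exception is the macrophage marker change, whose range of adjusted p is given over all 12 lymphomas. Each lymphoma gave 1 array per group, so p-values measure the spread between lymphomas.

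Treated array files were named DOX for 7 lymphomas and sen for 5, treated as a possible batch. The scanner files were not used. The members and the gene lists were chosen with earlier results of these data known. All members are named with every probe set. In each target, stage or family list named in the text, the rule names the 3 called genes that changed most in the list's prevailing direction, the called gene that changed most in the opposite one, and for each member the 3 genes most like it in untreated arrays. Other genes were named after their values were seen. Alternatives covered pairing, scaling, a filter on dim probe sets, the unit of the test, moderation, marker covariates, naming sets and lymphomas left out.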

Additional observations from a re-analysis of the deposited data

How the results depend on the processing

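Of the member probe sets, 10 were called lower in the fit as reported. The count was 2 with no replicate block (that is, without the pairing by lymphoma), 5 with arrays centred on the B-cell marker mean, 0 with the fibroblast covariate, 0 with the fibroblast and macrophage covariates, 0 in the sen naming set, 2 without lymphomas 403 and 5560, and 16 by the exact sign-flip permutation test without adjustment. The sign-flip test was run on member probe sets only, so no share over all probe sets stands beside its counts. By limma, 12196 of all 34945 probe sets had an unadjusted p under 0.05. The count called lower by limma ran from 2 to 13 when 1 lymphoma was left out at a time. It was 2 without 3594 or 3769, 4 without 2581, 5 without 403 or 5766 and 6 without 7050. Of all probe sets, 10.3% to 13.8% were called lower in those fits, with 10.9% without 3594 and 10.3% without 3769. The count of factors called lower by their highest probe set, 3 as reported, was 1 with no replicate block (Bach2), 6 with the mean of a gene's probe sets, 0 with either covariate fit, 0 in the sen naming set, 1 without 403 and 5560 (Ebf1) and 6 by the unadjusted sign-flip test. It ran from 1 to 6 on leaving out 1 lymphoma, with 1 without 3594 or 3769 and 6 without 1570. The counts called higher, 1 by probe sets and 1 by factors, were 0 with both covariates and 0 in the sen naming set, and 1 in every fit without 1 lymphoma. With the fibroblast covariate alone the factor called higher was Ikzf1 and not Spi1. With both covariates 0 of all 34945 probe sets were called by limma, 4384 at an unadjusted p under 0.05. The sen set has 5 pairs. The cause of the other shifts was not tested.

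Signs turned mainly in the covariate fits. The fibroblast marker mean was higher with ADR in 11 lymphomas and lower in 1, so values from these fits are not corrected ADR effects. With the fibroblast covariate the changes were Bach2 0.85, Myb 0.62, Ikzf1 0.60, Ikzf3 0.58 and Pou2af1 0.70, of which Ikzf1 alone was called. Among other probe sets of the members they were Pax5 1421765_at 0.19, Ebf1 1416301_a_at 0.022, Bach2 1436515_at 0.92, Myb 1450194_a_at 0.93 and 1422734_a_at 0.87, Ikzf1 1421303_at 0.16, Ikzf3 1453378_at 0.040, and Foxo1 1416982_at 0.27 and 1456529_at 0.31. Among listed genes they were Fcrla 0.33, Cd79a 0.36, Igll1 0.23, Sdc1 -0.16, Bcl11a 0.55, Spib 0.24, Cd24a 0.086, Nqo1 -0.50, Cdk6 0.17, Myc 0.33 and Cd34 -0.22. With the fibroblast and macrophage covariates they were Ebf1 0.052, Bach2 0.84, Myb 0.24, Ikzf1 0.75, Ikzf3 0.24 and Pou2af1 0.36. The probe sets Pax5 1421765_at gave 0.12, Ebf1 1448293_at 0.16, 1439789_at 0.11 and 1416301_a_at 0.83, Bach2 1436515_at 0.79, Myb 1450194_a_at 0.78 and 1422734_a_at 0.75, Ikzf3 1453378_at 0.10 and Foxo1 1456529_at 0.36. The listed genes Cd83 gave -0.88, Sdc1 -0.56, Bcl11a 0.37, Id2 -0.29, Spic -0.63, Cd24a 0.74, Bcl6 -0.22, Nqo1 -0.47, Cdk6 0.38, Myc 0.011, Ccnd2 -0.38 and Cd34 -0.19. Centring on B-cell markers gave Pax5 0.23, Ikzf1 0.028 and Irf4 0.30, and for probe sets Pax5 1421765_at 0.30, Ebf1 1457441_at 0.31, Bach2 1445460_at 0.26, Ikzf3 1453378_at 0.42 and Foxo1 1416982_at 0.31 and 1456529_at 0.41.

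Foxo1, near 0 as reported, was -0.0024 after median centring, -0.011 as the mean of its probe sets and -0.28 in the DOX set, and ran from -0.076 to 0.15 without 1 lymphoma. In the DOX set Ikzf3 1453378_at was 0.033, Foxo1 1416981_at -0.29 and Foxo1 1456529_at 0.097, in the sen set Foxo1 1416982_at was 0.27, and without 403 and 5560 Foxo1 1456529_at was 0.062. Without 1 lymphoma, Foxo1 1416981_at ran from -0.042 to 0.19, Foxo1 1456529_at from -0.079 to 0.028 and Ikzf3 1453378_at from -0.048 to 0.00016. Those values were not called. With no replicate block, Bach2 and Spi1 were called (log2 changes -1.59 and 0.70), while Myb and Ebf1 were not (adjusted p = 0.110 and 0.147). The 5 relations rerun (fibroblast marker change with Bach2, Ikzf1, Ikzf3 and Myb, and untreated Bach2 with Pou2af1) kept their sign and an unadjusted permutation p under 0.05 without the farthest pair of lymphomas and in the DOX set. Counts of the gene lists under these settings were added after seeing the data. Probe sets near the floor and the number of lymphomas limit what could be called.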

Other observations

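Marker lists for cells not described above were measured as well. Of 11 neutrophil markers, 3 were called higher with ADR and 0 lower, beside 13.4% and 12.5% of all genes, and 6 were near the floor in both groups (S100a9, Ltf, Ngp, Elane, Mpo and Cxcr2). The 3 were Lcn2, a secreted iron-siderophore binder, 6.80-fold higher (limma adjusted p = 4.91e-05), Mmp8, neutrophil collagenase, 5.50-fold higher, and S100a8, a calcium-binding alarmin, 4.58-fold higher, each in 12 of 12 lymphomas. Of 12 T and NK cell markers, 7 were near the floor in both groups and the marker mean changed by 0.02. Among macrophage markers the largest changes were those of Adgre1, a macrophage surface receptor (4.56-fold), Fcgr1, an IgG receptor (4.12-fold), and Cd14. Among fibroblast markers they were Cald1 (log2 change 4.09, near the floor in untreated cells), Fn1, fibronectin (11.1-fold), and Lox, a collagen crosslinking enzyme (10.5-fold).

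Lymphoma 1570 was the one in which all 10 members were higher with ADR by their highest probe sets. That lymphoma held the highest ADR level of Bach2 (9.13), Foxo1 (10.31), Irf4 (9.70) and Pou2af1 (11.73). Lymphoma 5560 held the lowest ADR level of Bach2, Myb, Ikzf3, Foxo1, Irf4 and Pou2af1. In lymphoma 1467, Bach2 was higher by 0.78 while Myb was lower by 1.59, and the fibroblast marker mean changed by -0.16.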
